A study of Mus musculus with 6 samples.

Results

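Lipid-associated macrophage genes were examined with Trem2 in tumor-associated macrophages (TAMs). The 10 genes, Trem2, Tyrobp, Apoe, Lpl, Fabp5, Spp1, Lgals3, Gpnmb, Cd9 and Cd63, were taken by symbol from a list of genes that mark lipid-associated macrophages and matched to Ensembl IDs. They are 10 of 55421 genes in the count table, and all 10 were among the 14469 genes with enough counts to be tested. Trem2 was lower and Cd9 higher in TAMs of mice with myeloid deletion of Pdcd1, and the question was whether the other genes of the program moved with one of them, with the other or with neither.

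TREM2 is a surface receptor of macrophages that binds lipids and lipoproteins and signals through TYROBP, also called DAP12, an adaptor that recruits the kinase SYK. Lipid-associated macrophages are cells found in obese fat, atherosclerotic plaques, fatty liver and tumors, which take up lipid and cell debris and express genes for lipoprotein handling, fatty acid transport, lysosomes and secreted matrix proteins. The genes are often read as one program, although they have separate promoters and separate regulators, such as the liver X receptors for Apoe and factors of the MITF family for Gpnmb.

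TAMs were sorted as live CD45+CD11b+F4/80+Ly6G- cells from M17 tumors, the MC17-51 fibrosarcoma, of Pdcd1f/f and Pdcd1f/fLysMcre mice, with 3 RNA-seq libraries for each genotype. Tumor cells were implanted in mice 8 to 12 weeks old, and TAMs were collected at day 15. Both genotypes carry the floxed Pdcd1 gene, which encodes the receptor PD-1, and Pdcd1f/fLysMcre mice also carry Cre under the lysozyme promoter, which is active in macrophages, monocytes and neutrophils. Pdcd1f/f mice carry no Cre, so an effect of Cre or of its insertion into Lyz2 and an effect of the deletion cannot be told apart. The labels do not say that the libraries of a genotype came from separate mice, so p-values measure the spread between these libraries. In RNA of sorted cells in bulk, fewer cells of a type and less RNA per cell cannot be told apart.

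The libraries held 41833823 to 51417209 counts, and the 10 genes together took 0.874% of the counts in Pdcd1f/f and 0.743% in Pdcd1f/fLysMcre TAMs. Normalized counts of Lyz2 ranged from 207974 to 225226 without Cre and from 405 to 465 with it, which separates the libraries as labelled. Pdcd1 had 7 to 16 counts in all 6 libraries, and a count over the whole gene gives no view of the floxed exons. Pdcd1f/f replicate 1 and Pdcd1f/fLysMcre replicate 2 stood apart from the other libraries. In these 2 libraries the deviation from the genotype mean fell with the GC content of the genes (Spearman rho across genes of −0.58 and −0.49), and it rose with it in the other 4 (rho between 0.12 and 0.51). Deviations within a genotype offset each other for each gene, so the opposite sign in the other 4 is in part built in. The values of the 10 genes, and the counts of called genes in related lists, are given also without both libraries that stood apart. Transcripts of 4 Y-linked genes summed to 1545 to 1914 normalized counts in Pdcd1f/f and 6267 to 7233 in Pdcd1f/fLysMcre libraries, and Xist ranged from 17318 to 26511 and from 8530 to 13137. Both kinds of transcript were present in every library, and the mix of sexes and the genotype cannot be told apart.

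The upstream sequences of the genes that were called in opposite directions are shown first, so that genes that moved in the same and in opposite directions can be read side by side. The table of RefSeq promoters used here was matched for 7 of the 10 genes, of which Trem2, Apoe, Spp1 and Cd9 passed the test described below. Each run gives the 250 bases before the most upstream start site on GRCm38.p6, 5′ to 3′ on the strand of the gene. They lie at chr17:48346151-48346400 on the plus strand for Trem2, at chr7:19699189-19699438 on the minus strand for Apoe, at chr5:104434861-104435110 on the plus strand for Spp1 and at chr6:125494761-125495010 on the minus strand for Cd9. Capitals mark matches, on either strand, to the letters searched.
Trem2: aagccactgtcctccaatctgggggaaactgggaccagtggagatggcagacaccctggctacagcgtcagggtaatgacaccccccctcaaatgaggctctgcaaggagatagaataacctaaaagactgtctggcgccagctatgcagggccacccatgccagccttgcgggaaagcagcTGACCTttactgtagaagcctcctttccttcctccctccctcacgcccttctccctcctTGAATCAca
Apoe: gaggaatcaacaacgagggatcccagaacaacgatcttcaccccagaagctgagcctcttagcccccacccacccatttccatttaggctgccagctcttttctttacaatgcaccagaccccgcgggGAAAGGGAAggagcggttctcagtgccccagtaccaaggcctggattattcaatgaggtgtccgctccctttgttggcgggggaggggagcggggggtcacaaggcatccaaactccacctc
Spp1: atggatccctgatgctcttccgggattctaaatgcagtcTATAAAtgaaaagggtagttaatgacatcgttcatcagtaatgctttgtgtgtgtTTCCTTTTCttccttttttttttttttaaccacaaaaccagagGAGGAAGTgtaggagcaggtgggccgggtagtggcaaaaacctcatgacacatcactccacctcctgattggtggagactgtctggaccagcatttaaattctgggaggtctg
Cd9: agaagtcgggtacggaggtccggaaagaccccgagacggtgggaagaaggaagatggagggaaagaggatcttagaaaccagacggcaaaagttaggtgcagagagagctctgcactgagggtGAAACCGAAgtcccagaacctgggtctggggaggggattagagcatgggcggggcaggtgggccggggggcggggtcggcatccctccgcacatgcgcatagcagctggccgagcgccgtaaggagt
The letters searched were CACGTG for an E-box, TGANTCA for AP-1, GAGGAAGT for PU.1, GAAANNGAA for interferon regulatory factors (IRF), AGGTCA for a nuclear receptor half-site and TATAAA for a TATA box. Positions are counted back from the start site to the first base of the match. Trem2 held the AP-1 letters at −9 and the nuclear receptor half-site at −68. Apoe held the IRF letters at −122, and Cd9 held them at −127. Spp1 held the PU.1 letters at −113, the IRF letters at −156, and the TATA letters at −211. In these windows Trem2 and Apoe, which fell, shared no motif searched, while Apoe, Spp1 and Cd9, which moved in different directions, all held the IRF letters. This depends on the start site, since the windows before the 2 other starts of Apoe and the other start of Spp1 hold no IRF letters, and one of those of Apoe holds TATA letters at −100 and −96. Among 32851 mouse promoters of the same length, 7.13% held the IRF letters, 6.75% the AP-1 letters, 2.44% the PU.1 letters, 14.0% the nuclear receptor half-site, 12.4% the TATA letters and 6.02% the E-box. The upstream sequences of the same length for Gpnmb, Cd63 and Lgals3 held none of these letters. A match describes the sequence and is not evidence of binding.

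The 10 genes did not move in a single direction. Trem2, Tyrobp and Apoe decreased and Spp1 and Cd9 increased in Pdcd1f/fLysMcre TAMs, while Gpnmb, Lgals3, Lpl, Fabp5 and Cd63 did not pass the test. Calls were made on the raw counts by the quasi-likelihood test of edgeR, two-sided, at an adjusted p under 0.05 after Benjamini-Hochberg adjustment over all 14469 genes. Of the 10 genes 5 were called, where 5.43% of all tested genes were called. Trem2 and Cd9, which posed the question, are among the 5 and are no support. Of the 8 genes beside them 3 were called, 1 higher and 2 lower, where 2.42% of tested genes were called higher and 3.01% lower. Without Pdcd1f/f replicate 1, 6 of the 10 were called, 3 of them higher, where 21.6% of all tested genes were called. Without both libraries that stood apart 9 were called, 5 of them higher, where that share was 26.2%. Leaving out each of the other 5 libraries gave 1 or 2, 0 or 1 of them higher, where 222 to 530 of all tested genes were called. Apoe was called lower each time. The libraries of the genotypes did not overlap for Trem2 and Cd9, nor for 5 of the 8 genes beside them, 3 of them higher and 2 lower in Pdcd1f/fLysMcre, and the same held for 27.2% of all tested genes. The median log2 fold change of the 10 genes was 0.04, beside −0.00258 for all tested genes, and the median size of the log2 fold change without its sign was 0.24, beside 0.16. Both medians include Trem2 and Cd9, so they describe the 10 genes and are no support. The 10 genes were abundant, with at least 4977 normalized counts on average in Pdcd1f/f TAMs. Small differences could therefore be measured in them that could not be in genes of low counts.

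**Figure D1:**
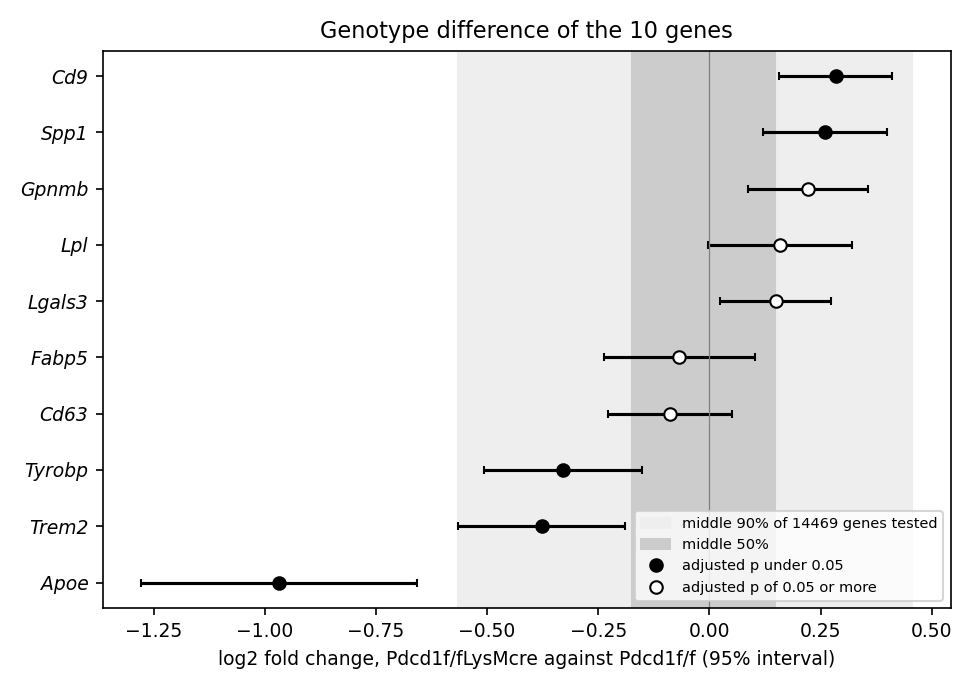
Log2 fold change of each of the 10 genes in Pdcd1f/fLysMcre against Pdcd1f/f TAMs with its 95% interval from edgeR (horizontal axis), ordered by size, over grey bands that hold the middle 50% and 90% of all tested genes. Apoe, at −0.97, lies outside the wider band, which runs from −0.56 to 0.46, and the other 9 genes lie inside it.

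Trem2 (ENSMUSG00000023992, chromosome 17 from 48346401 to 48354147 of GRCm38) had normalized counts of 6454, 7377 and 7827 in the Pdcd1f/f group, in the order of the replicate numbers, and of 5791, 5084 and 5781 in the Pdcd1f/fLysMcre group, an order kept throughout. Each Pdcd1f/fLysMcre library was below each Pdcd1f/f library, and the lowest of each genotype was the library that stood apart. The log2 fold change was −0.38 with a standard error of 0.08 (edgeR, adjusted p = 0.0302), and −0.40 without the 2 libraries that stood apart (adjusted p = 2.94e-05). Tyrobp (ENSMUSG00000030579, chromosome 7 from 30413760 to 30417585), the adaptor of TREM2 and of several other receptors, had 22065, 25417 and 26082 normalized counts in Pdcd1f/f libraries and 20512, 18038 and 19922 in Pdcd1f/fLysMcre libraries. The groups did not overlap here either, and the lowest library of each genotype was the same as for Trem2. Tyrobp decreased by 0.33 on the log2 scale with a standard error of 0.08 (edgeR, adjusted p = 0.0405), and by 0.35 without the 2 libraries (adjusted p = 2.58e-05). Offsets for GC content and exon length brought the fall of Tyrobp to −0.21 (adjusted p = 0.00313) and that of Trem2 to −0.34 (adjusted p = 5.11e-04) on the log2 scale. When each library was left out in turn, Trem2 was called in 2 of 6 fits, those without Pdcd1f/f replicate 1 and without Pdcd1f/fLysMcre replicate 3, and Tyrobp in 1 of 6, that without Pdcd1f/f replicate 1. The adjusted p-values in these fits ran from 0.00133 to 0.158 for Trem2 and from 0.00191 to 0.207 for Tyrobp, with the same direction throughout.

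Of 9 genes of TREM2 receptor signalling that act next to the receptor, 1 was called higher and none lower by edgeR, beside 2.42% and 3.01% of all tested genes, and their median log2 fold change was 0.02. At an unadjusted p under 0.05, 1 was higher and 3 were lower, where 12.3% of all tested genes were higher and 11.9% lower. DESeq2 called 1 higher and 2 lower, Hcst and Inpp5d, where it called 6.18% of genes higher and 6.90% lower. All these shares are the background for the counts by edgeR, by DESeq2 and at an unadjusted p given for the other lists. Without Pdcd1f/f replicate 1, edgeR called 1 of the 9 higher and 4 lower, where it called 21.6% of all tested genes in either direction. Without both libraries that stood apart it called 2 higher and 3 lower, where that share was 26.2%. In the fits without each of the other 5 libraries none was called lower and 0 or 1 higher. The gene called was Pik3r1, the regulatory subunit of phosphoinositide 3-kinase, with 9166 to 10568 normalized counts in Pdcd1f/f and 11898 to 13035 in Pdcd1f/fLysMcre libraries (log2 fold change 0.34, standard error 0.07, edgeR adjusted p = 0.0207). Pik3r1 was called in 2 of the 6 fits with a library left out. Hcst, which encodes DAP10, another adaptor of TREM2, had 300 to 323 normalized counts against 200 to 252 (log2 fold change −0.40, adjusted p = 0.087 from edgeR), without overlap. With offsets for GC content and exon length Hcst was at −0.24 (edgeR, adjusted p = 0.135). Hcst spans 30417712 to 30419854 of chromosome 7 on the minus strand, next to Tyrobp, which ends at 30417585 on the plus strand. The strand setting of the counting is not given, and reads of Tyrobp counted for Hcst were not tested. Syk, the kinase that TYROBP recruits, had a log2 fold change of 0.02 with a standard error of 0.07. With offsets for GC content and exon length Syk was at 0.11 (edgeR, adjusted p = 0.036). Under these offsets 3 of the 9 were called higher and 1 lower, where 2684 of 14454 tested genes were called. The lipid phosphatase gene Inpp5d, an inhibitor of the pathway, had a log2 fold change of −0.22 (adjusted p = 0.0718 from edgeR), with no overlap between libraries. Another list of 6 held the TREM family genes Trem1, Trem3, Treml1, Treml2 and Treml4, and Nfam1, a receptor gene outside the family. None of the 6 was called by edgeR or DESeq2, with 1 higher and 2 lower at an unadjusted p under 0.05. Treml4 alone was called, higher, by edgeR without both libraries that stood apart. Except for Nfam1 the 6 lie on chromosome 17 like Trem2. Trem1, which also signals through TYROBP, had 5918 to 6412 normalized counts in Pdcd1f/f libraries and 6243 to 6503 in Pdcd1f/fLysMcre libraries (log2 fold change 0.04, standard error 0.06).

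The gene with the largest change of the 10 was Apoe (ENSMUSG00000002985, chromosome 7 from 19696109 to 19699188), which encodes a lipoprotein component that carries cholesterol out of macrophages and is itself a ligand of TREM2. Apoe had 119625, 163184 and 179360 normalized counts in Pdcd1f/f libraries and 77902, 68830 and 89384 in Pdcd1f/fLysMcre libraries. The highest Pdcd1f/fLysMcre library lay below the lowest Pdcd1f/f library, although Apoe also varied most within each genotype. Apoe fell by 0.97 on the log2 scale with a standard error of 0.14, a ratio of 0.512 (edgeR, adjusted p = 0.0034). Apoe was called in all 17 alternative fits, including those without any single library, with log2 fold changes between −1.13 and −0.77. The value closest to 0 came with the offsets for GC content, and Apoe has the highest GC content of the 10 genes, 59.5%. Without the 2 libraries that stood apart the log2 fold change was −1.04.

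Lpl (ENSMUSG00000015568, chromosome 8 from 68880491 to 68907448), the lipase that releases fatty acids from lipoproteins, did not follow Apoe. Its normalized counts were 21439, 19185 and 18918 in Pdcd1f/f libraries and 21428, 23781 and 21157 in Pdcd1f/fLysMcre libraries. Pdcd1f/f replicate 1 lay within the range of the other genotype, and the 2 libraries that stood apart were the highest of their genotypes. The log2 fold change was 0.16 with a 95% interval from −0.00263 to 0.32 (edgeR, adjusted p = 0.213). Lpl was at 0.16 without both libraries (adjusted p = 0.0136) and 0.09 with the offsets (adjusted p = 0.147). With a library left out it was called in 1 of 6 fits, that without Pdcd1f/f replicate 1 (log2 fold change 0.21, edgeR adjusted p = 0.0411), and the log2 fold changes ran from 0.10 to 0.21. Of 14 lipoprotein partners of Apoe and Lpl, such as receptors, transporters and inhibitors, 10 were tested, 1 was called lower and none higher by edgeR, beside 3.01% and 2.42% of all tested genes, and the median log2 fold change was −0.10. With a library left out 0 to 4 were called lower, 4 without Pdcd1f/f replicate 1, where 1 was also called higher, and 0 without Pdcd1f/f replicate 2 or Pdcd1f/fLysMcre replicate 1. The fit without Pdcd1f/f replicate 1 called 21.6% of all tested genes in either direction and 11.5% lower. Without both libraries that stood apart 5 were lower and 1 higher, where 13.6% of all tested genes were called lower and 12.5% higher. At an unadjusted p under 0.05, 1 was higher and 4 were lower, and DESeq2 called Sel1l higher and Angptl4 and Lrp1 lower. The gene called by edgeR was Angptl4, a secreted inhibitor of LPL, with 168 to 208 normalized counts in Pdcd1f/f and 93.3 to 114 in Pdcd1f/fLysMcre libraries (log2 fold change −0.88, standard error 0.15, edgeR adjusted p = 0.00912). Angptl4 was called in 4 of the 6 fits with a library left out.

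Fabp5 (ENSMUSG00000027533, chromosome 3 from 10012548 to 10016607), a cytosolic carrier of fatty acids, was not called. It had 21236, 24313 and 24510 normalized counts in Pdcd1f/f and 22457, 20754 and 23549 in Pdcd1f/fLysMcre libraries. The genotypes overlapped, and the 2 libraries that stood apart were again the lowest of their genotypes. For Fabp5 the fitted difference was −0.07 on the log2 scale, with a 95% interval from −0.24 to 0.10 (edgeR, adjusted p = 0.624), and Fabp5 was called in none of the 17 alternative fits, with −0.09 without both libraries that stood apart. Of 8 other fatty acid binding protein genes only 3 were tested, and 1 of them, Fabp4, was called lower by edgeR, beside 3.01% of all tested genes. DESeq2 also called only Fabp4, 2 were lower at an unadjusted p under 0.05, and none was higher by any of these. Fabp4, the adipocyte and macrophage form, decreased from 481 to 635 normalized counts in Pdcd1f/f libraries to 287 to 387 in Pdcd1f/fLysMcre libraries (log2 fold change −0.69, standard error 0.14, edgeR adjusted p = 0.0202), and was called in 3 of 6 fits with a library left out and in the fit without both that stood apart. A processed pseudogene, Gm6166, shares 6.0% of the 42-base stretches of the Fabp5 exons, and it held at most 75 counts in a library.

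Spp1 (ENSMUSG00000029304, chromosome 5 from 104435118 to 104441050), which encodes the secreted glycoprotein osteopontin, increased. Its normalized counts were 79484, 77513 and 76714 in Pdcd1f/f libraries and 89330, 99610 and 90526 in Pdcd1f/fLysMcre libraries. The genotypes were separate, and the libraries that stood apart were the highest of each. Spp1 rose by 0.26 on the log2 scale with a standard error of 0.06 (edgeR, adjusted p = 0.0403), and by 0.22 without the 2 libraries (adjusted p = 0.00101). Spp1 was called in 1 of the 6 fits with a library left out, that without Pdcd1f/f replicate 1, with adjusted p-values from 0.0144 to 0.19. Gm42793, annotated on the same strand over Spp1, shares 12.7% of its 42-base stretches and held at most 231 counts.

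Of 8 receptors for osteopontin, 3 were called higher and none lower by edgeR, beside 2.42% and 3.01% of all tested genes (2 were lower at an unadjusted p under 0.05, and DESeq2 called 1 of them, Itgb5), with a median log2 fold change of 0.13. They were Cd44, a receptor for osteopontin and hyaluronan, and Itgav and Itgb3, which pair as the integrin that binds osteopontin. Cd44 had 63724 to 69359 normalized counts in Pdcd1f/f and 80657 to 86743 in Pdcd1f/fLysMcre libraries (log2 fold change 0.37, standard error 0.06, edgeR adjusted p = 0.00824). Itgav had 15752 to 17604 against 19440 to 21395 (log2 fold change 0.34, standard error 0.07), and Itgb3 had 1237 to 1380 against 1628 to 1727 (log2 fold change 0.36, standard error 0.07), both with an adjusted p of 0.0192 from edgeR. In the fits that left out a library, Cd44 was called in 4 of 6 and each integrin gene in 2 of 6, and none of the 3 was called without Pdcd1f/f replicate 2 or without Pdcd1f/fLysMcre replicate 1. Without Pdcd1f/f replicate 1 the receptors called were 4 higher and 1 lower, where 21.6% of all tested genes were called in either direction. Without both libraries that stood apart they were 4 higher and 2 lower, where 12.5% of all tested genes were called higher and 13.6% lower.

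Lgals3 (ENSMUSG00000050335, chromosome 14 from 47367751 to 47386160), which encodes galectin-3, a lectin that binds galactosides and gathers at damaged lysosomes, lay higher in every Pdcd1f/fLysMcre library without passing the test. It had 60031, 61611 and 61451 normalized counts in Pdcd1f/f libraries and 68692, 65657 and 68368 in Pdcd1f/fLysMcre libraries, with no overlap. On the log2 scale Lgals3 differed by 0.15 with a 95% interval from 0.02 to 0.27 (edgeR, adjusted p = 0.143). Under the offsets this was 0.27 (adjusted p = 1.91e-04), and without the 2 libraries 0.15 (adjusted p = 0.0116). A list of 7 held other galectin genes and Lgals3bp, which encodes a binding protein of galectin-3 and no galectin. Of these 5, with Lgals3bp, were tested and none was called by edgeR or DESeq2. At an unadjusted p under 0.05, 1 was lower, and the median log2 fold change was −0.16. Without Pdcd1f/f replicate 1 edgeR called 2 lower, beside 11.5% of all tested genes. It also called 2 lower without both libraries, Lgals3bp and Lgals9, beside 13.6%.

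Gpnmb (ENSMUSG00000029816, chromosome 6 from 49036546 to 49070929), a membrane glycoprotein of macrophages with lysosomal load, also lay higher without overlap. Its normalized counts were 11475, 11939 and 12482 in Pdcd1f/f libraries and 14056, 13461 and 14254 in Pdcd1f/fLysMcre libraries. The log2 fold change was 0.22 with a standard error of 0.06 (edgeR, adjusted p = 0.0633), which just missed the threshold. It was called in 6 of the 17 alternative fits, among them DESeq2 (adjusted p = 0.0187) and the fit without the 2 libraries that stood apart (adjusted p = 0.00306), and in none of the 6 that left out 1 library.

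Cd9 (ENSMUSG00000030342, chromosome 6 from 125460266 to 125494791), a tetraspanin that organises receptors at the cell surface, had 4895, 4981 and 5055 normalized counts in Pdcd1f/f libraries and 6006, 5946 and 6198 in Pdcd1f/fLysMcre libraries. Cd9 varied little within either genotype, and the lowest Pdcd1f/fLysMcre library lay well above the highest Pdcd1f/f library. Cd9 increased by 0.28 on the log2 scale with a standard error of 0.06 (edgeR, adjusted p = 0.0192), and by 0.28 without the 2 libraries (adjusted p = 7.06e-04). It was called in 2 of 6 fits with a library left out, those without Pdcd1f/f replicate 1 and without Pdcd1f/fLysMcre replicate 2, with adjusted p-values from 0.0114 to 0.128. Gm26728, annotated on the opposite strand over Cd9, held at most 17 counts.

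Cd63 (ENSMUSG00000025351, chromosome 10 from 128900989 to 128912822), the tetraspanin of late endosomes and lysosomes, did not follow Cd9. It had 25254, 25808 and 25031 normalized counts in Pdcd1f/f libraries and 23033, 25407 and 23054 in Pdcd1f/fLysMcre libraries, and replicate 2 of the latter lay within the Pdcd1f/f range. The log2 fold change was −0.09 with a 95% interval from −0.23 to 0.05 (edgeR, adjusted p = 0.417). Its direction depended on the processing, with 0.07 under the offsets for GC content and length (adjusted p = 0.796) and −0.14 without the 2 libraries (adjusted p = 0.0219). Cd63 lies 11.6 Mb from Lyz2, which carries the Cre insertion, and the pseudogene Cd63-ps shares 11.2% of its 42-base stretches and held at most 139 counts. Of 11 other tetraspanin genes, 1 was called lower and none higher by edgeR, beside 3.01% and 2.42% of all tested genes, while DESeq2 called 4 lower, the number at an unadjusted p under 0.05, and none was higher by either. Their median log2 fold change was −0.15. The number called lower by edgeR was 6 without Pdcd1f/f replicate 1, where 11.5% of all tested genes were called lower. It was 6 without both libraries that stood apart, where that share was 13.6%, and 1 without each of the other 5 libraries. Cd81, a close relative of Cd9, moved opposite to it, from 4052 to 4791 normalized counts in Pdcd1f/f to 2666 to 3067 in Pdcd1f/fLysMcre libraries (log2 fold change −0.60, standard error 0.08, edgeR adjusted p = 0.00268), and was called whichever library was left out.

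**Figure D2:**
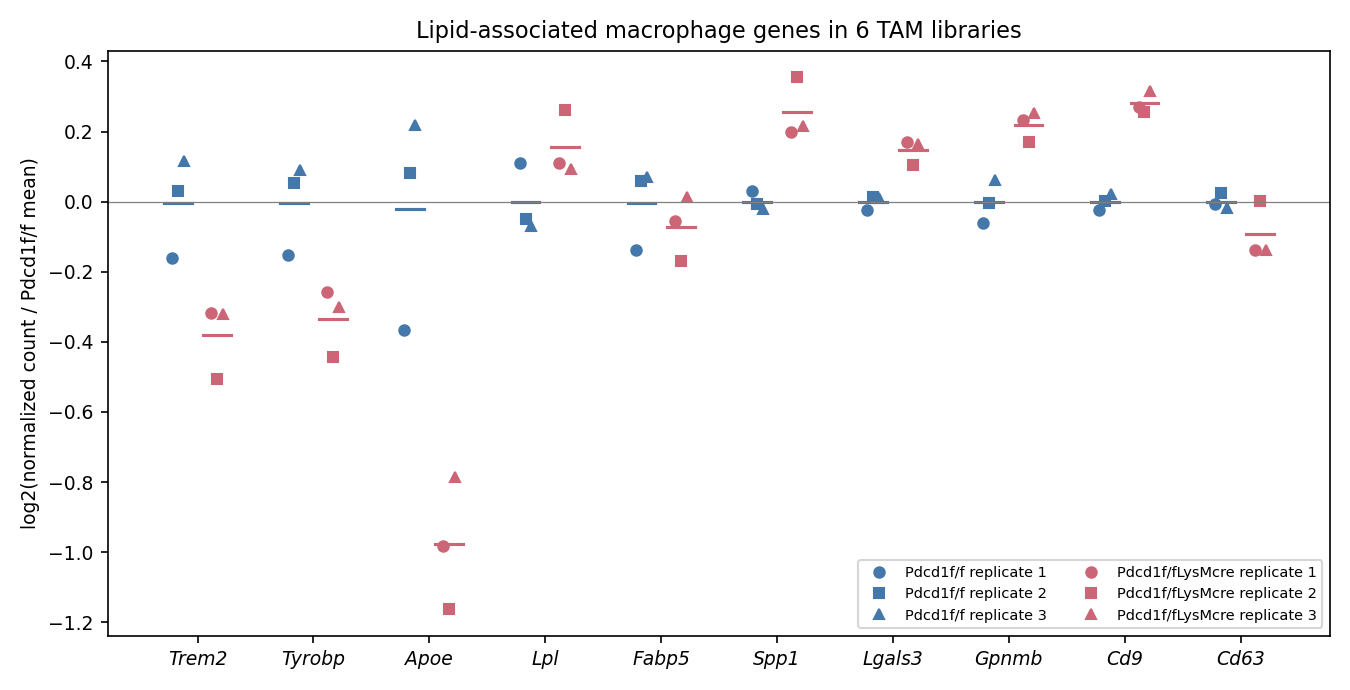
Normalized count of each gene in each of the 6 libraries relative to the mean of the Pdcd1f/f libraries, on a log2 scale (vertical axis), with the genes along the horizontal axis. Symbols give the replicate number, colors the genotype and short lines the mean of 3 libraries. Trem2, Tyrobp and Apoe have all Pdcd1f/fLysMcre libraries below the Pdcd1f/f libraries, Spp1, Lgals3, Gpnmb and Cd9 have them all above, and Lpl, Fabp5 and Cd63 overlap.

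The genes were also set against each other within libraries, by the log2 ratio of the counts of each gene to those of Trem2, which does not depend on the scaling between libraries. The fall of Trem2 and the rise of Cd9 posed the question, so the ratio of these genes restates them and is a description. The ratio of Cd9 to Trem2 was −0.40, −0.57 and −0.63 in Pdcd1f/f libraries and 0.05, 0.23 and 0.10 in Pdcd1f/fLysMcre libraries. Its mean was higher by 0.66 in Pdcd1f/fLysMcre, where the SDs within genotypes were 0.12 and 0.09. The ratio of Tyrobp to Trem2 was 1.77, 1.78 and 1.74 in Pdcd1f/f and 1.82, 1.83 and 1.78 in Pdcd1f/fLysMcre libraries, a difference of 0.05, and the nearest libraries of the genotypes were at 1.7846 and 1.7849. Receptor and adaptor thus stayed within narrow bounds of each other in all 6 libraries, while Apoe fell by 0.58 relative to Trem2. These ratios are not corrected for GC content. With offsets for GC content and exon length the log2 fold changes were −0.21 for Tyrobp and −0.34 for Trem2. Narrow bounds were not particular to the adaptor. By the distances given below, Adamts10, Acox3, Pold4, Trpm2 and Cebpa lay nearer to Trem2 than Tyrobp did. The share of tested genes with a ratio as steady was not determined. The ratio to Trem2 was higher in Pdcd1f/fLysMcre by 0.63 for Spp1, 0.60 for Gpnmb, 0.53 for Lpl, 0.52 for Lgals3, 0.31 for Fabp5 and 0.29 for Cd63. In these 8 ratios, that of Cd9 left aside, the libraries of the genotypes did not overlap, 7 higher and 1 lower, and the ratio to Trem2 also did not overlap for 57.2% of all 14468 other tested genes. Trem2 was known to be lower when it was chosen as the denominator, so the ratios are a description and no test of them is given.

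**Figure D3:**
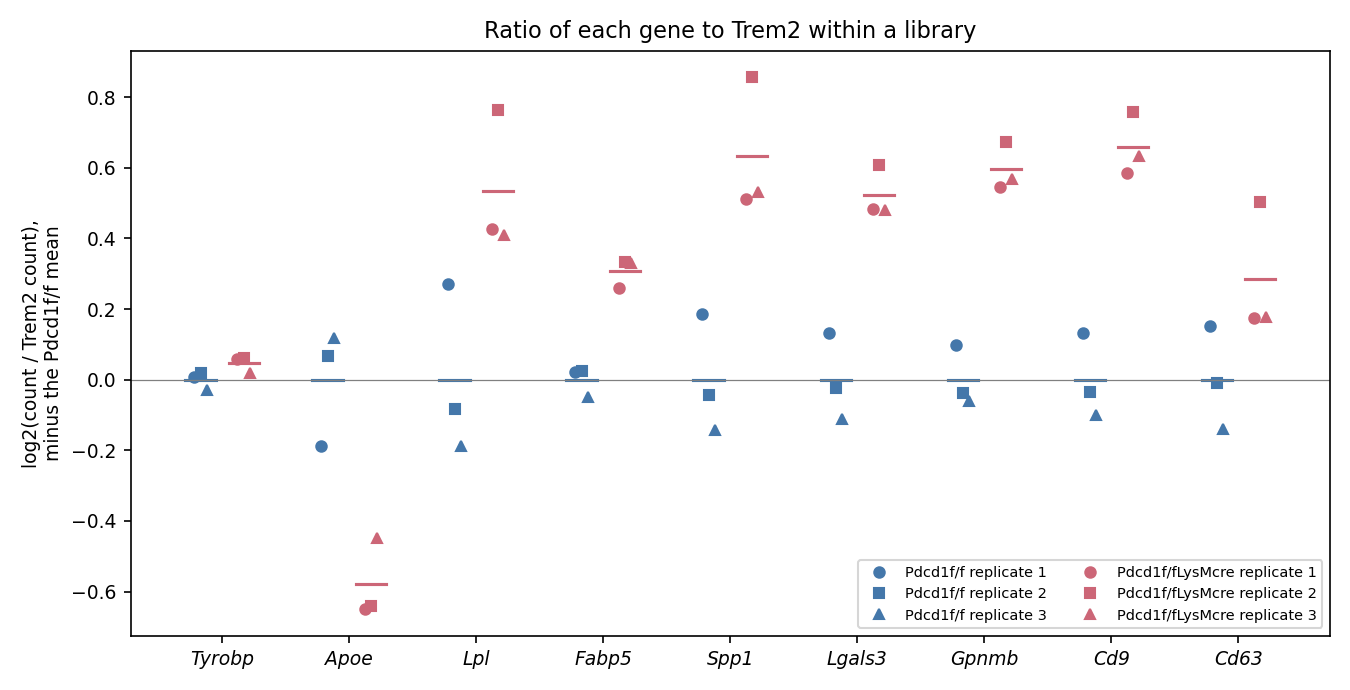
Log2 ratio of the counts of each of 9 genes to the counts of Trem2 within each library, minus the mean of the Pdcd1f/f libraries (vertical axis), with symbols for replicate numbers, colors for genotypes and lines for means. Tyrobp stays within 0.1 of its Pdcd1f/f mean, Apoe lies below in all Pdcd1f/fLysMcre libraries, and the other 7 genes lie above.

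Within genotypes most of the genes shared an order. Of the 10 genes 7, namely Trem2, Tyrobp, Apoe, Fabp5, Lgals3, Gpnmb and Cd9, were lowest in Pdcd1f/f replicate 1 and in Pdcd1f/fLysMcre replicate 2, whether they were higher or lower in Pdcd1f/fLysMcre TAMs, and Spp1 and Lpl were highest in these same libraries. The deviation of Apoe from the mean of its genotype was −0.34 in the former and −0.19 in the latter on the log2 scale, and that of Lpl was 0.11 in each. Lpl and Spp1 have the lowest GC contents of the 10 genes, 43.5% and 43.3%, and Cd9 is next with 45.9%. The part of the GC content in this order was not tested. Cd9 deviated by at most 0.04 in any library.

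The level of transcripts per length differed widely between the genes. Per kilobase of annotated exon, Pdcd1f/f TAMs had 72056 ± 14451 normalized counts of Apoe, 47272 ± 865 of Spp1, 36764 ± 3228 of Tyrobp and 32848 ± 468 of Lgals3 (SD, n = 3). Cd63 and Fabp5 followed with 6889 ± 109 and 6547 ± 515, which did not differ beyond their spread. Cd9 had 2435 ± 39.2, Lpl 1894 ± 132 and Gpnmb 1837 ± 77.4, of which the last 2 overlapped, and Trem2 was lowest with 1460 ± 141. In Pdcd1f/fLysMcre TAMs Apoe, at 36813 ± 4818, was below Spp1, at 56526 ± 3411, and about level with Lgals3, at 36368 ± 897. The exon length is the union over all annotated transcripts, 4946 bases for Trem2, so the level of a gene with long minor transcripts is understated.

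Other genes of lipid-associated macrophages were found in both directions. Of 28 further genes of the program, 3 were called higher and 3 lower, beside 2.42% and 3.01% of all tested genes, 22 were not called, and the median log2 fold change was −0.07. With a library left out the counts ran from 1 to 6 higher and from 1 to 8 lower, with the highest of both without Pdcd1f/f replicate 1 and 1 of each without Pdcd1f/f replicate 2 or Pdcd1f/fLysMcre replicate 1. The fit without Pdcd1f/f replicate 1 called 21.6% of all tested genes in either direction and 11.5% lower. Without both libraries that stood apart 8 were higher and 11 lower, where 12.5% of all tested genes were called higher and 13.6% lower. Cd36, a scavenger receptor for oxidized lipoproteins and fatty acids, rose from 667 to 696 normalized counts in Pdcd1f/f libraries to 1143 to 1452 in Pdcd1f/fLysMcre libraries (log2 fold change 0.94, standard error 0.10, edgeR adjusted p = 4.91e-04). Plin2, which coats lipid droplets, fell from 28800 to 33164 normalized counts to 19570 to 21277 (log2 fold change −0.62, standard error 0.07, edgeR adjusted p = 8.3e-04). Cd36 and Plin2 were called whichever library was left out. The other genes called were Fabp4, given above, the growth factor gene Igf1, which was lower (log2 fold change −0.60, edgeR adjusted p = 0.0328), and Itgax and Clec7a, which encode CD11c and the glucan receptor dectin-1 and were higher (log2 fold changes of 0.38 and 0.40, edgeR adjusted p = 0.0108 and 0.0235). Igf1, Itgax and Clec7a were named after their values were seen.

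Of 11 regulators of the program, 1 was called lower and 1 higher by edgeR, beside 3.01% and 2.42% of all tested genes, and their median log2 fold change was −0.20. DESeq2 called Rxra and Irf8 lower and Mitf and Bhlhe40 higher. With a library left out 0 to 5 were called lower by edgeR, with 0 without Pdcd1f/f replicates 2 or 3 or Pdcd1f/fLysMcre replicates 1 or 2. The 5 came without Pdcd1f/f replicate 1, where 11.5% of all tested genes were called lower. Without both libraries that stood apart 7 were lower and 3 higher, beside 13.6% and 12.5% of all tested genes. Rxra, the partner of the liver X receptors, had 1768 to 2257 normalized counts in Pdcd1f/f and 1430 to 1595 in Pdcd1f/fLysMcre libraries (log2 fold change −0.42, standard error 0.09, edgeR adjusted p = 0.0313). Rxra was called in 2 of the 6 fits with a library left out. Irf8, a transcription factor of myeloid cells, had a log2 fold change of −0.30 without overlap (edgeR, adjusted p = 0.0519). The gene called higher was Bhlhe40, a transcriptional repressor, with a log2 fold change of 0.37. With offsets for GC content and exon length Rxra was at −0.27 and Bhlhe40 at 0.37. The liver X receptor genes Nr1h3 and Nr1h2, which activate Apoe, had log2 fold changes of −0.22 and −0.29 with overlapping libraries (edgeR, adjusted p = 0.233 and 0.164). Mitf, an activator of Gpnmb, had 5792 to 6601 against 7111 to 7546 normalized counts, a log2 fold change of 0.25 (edgeR, adjusted p = 0.0528). In the fit without both libraries that stood apart edgeR called Nr1h3, Nr1h2 and Irf8 lower and Mitf higher.

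**Figure D4:**
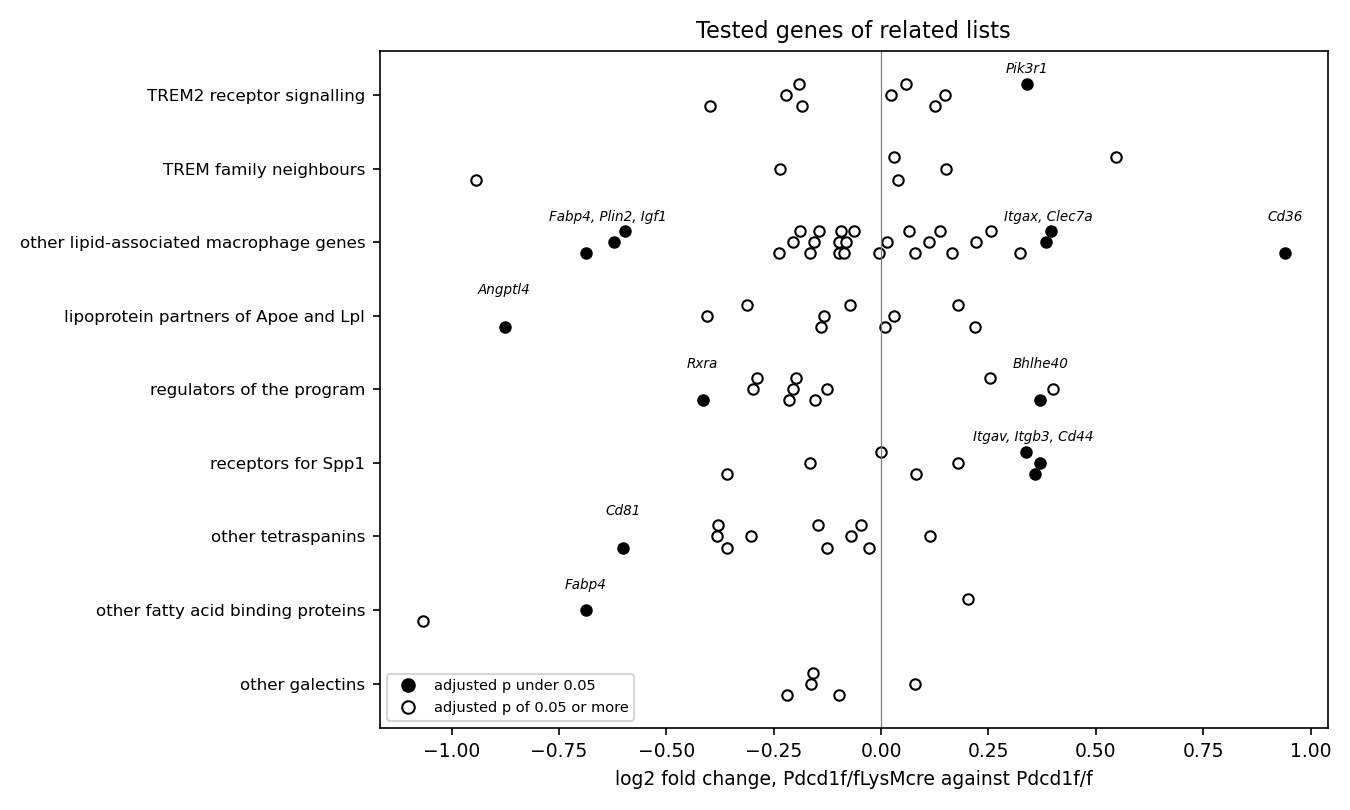
Log2 fold change of each tested gene (horizontal axis) of 9 lists of genes related to the 10 (vertical axis), with filled points for an adjusted p under 0.05 in edgeR and gene names beside them. Every list has points on both sides of 0, and the receptors for Spp1 and the TREM2 signalling genes have filled points to the right only.

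By the root mean square difference of centred log2 normalized counts over the 6 libraries, the 5 tested genes nearest to Trem2 outside the 10 were Adamts10 (0.0224), Acox3 (0.0225), Pold4 (0.026), Trpm2 (0.0265) and Cebpa (0.0275). Tyrobp was at 0.0309 from Trem2, and its rank among all tested genes was not determined. No other gene of the 10 was nearer to Trem2 than Fabp5, at 0.158. The 5 genes nearest to Cd9 were Tbc1d9 (0.0208), Jade3 (0.0224), Lrrc8d (0.0229), Rest (0.0249) and Yars (0.0252). Within the 10, Gpnmb at 0.0405, Spp1 at 0.0694 and Lgals3 at 0.07 were the nearest to Cd9, and Apoe was the farthest at 0.647. Lpl followed at 0.116 from Cd9, while Fabp5 and Cd63 lay at similar distances from both, 0.158 and 0.198 from Trem2 and 0.187 and 0.197 from Cd9. Apoe was far from Trem2 too, at 0.312. Distances were taken to Trem2 and to Cd9 alone, over 6 libraries and from the same values as the fold changes.

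Some markers of macrophages were lower, as Trem2 and Apoe were. Of 10 macrophage markers 6 were called lower and none higher by edgeR, beside 3.01% and 2.42% of all tested genes, 7 were lower and none higher by DESeq2 or at an unadjusted p under 0.05, and their summed level was 343967 to 402634 normalized counts in Pdcd1f/f and 284846 to 305330 in Pdcd1f/fLysMcre libraries, with no marker at 0. Those called were Mertk, an efferocytosis receptor gene, the complement genes C1qa, C1qb and C1qc, Adgre1, which encodes F4/80, and Csf1r, with log2 fold changes of −0.61, −0.61, −0.55, −0.60, −0.38 and −0.32. With offsets for GC content and exon length C1qa was at −0.40, C1qc at −0.43 and Mertk at −0.63. With a library left out, Mertk was called in 6 of 6 fits, C1qc and Adgre1 in 4, C1qa and C1qb in 3 and Csf1r in 2, and without Pdcd1f/f replicate 2 or without Pdcd1f/fLysMcre replicate 1 Mertk alone was called. Without both libraries that stood apart 8 of the 10 were lower and none higher, beside 13.6% and 12.5% of all tested genes. Those not called were Fcgr1 at −0.21, Itgam at −0.16, Cd68 at −0.06 and Ptprc at 0.11. Of 7 dendritic cell markers 4 were tested and none was called by edgeR or DESeq2, although 2 were higher at an unadjusted p under 0.05, and 1, Zbtb46, was called higher without both libraries that stood apart, with sums of 247 to 325 against 329 to 394. Of 9 neutrophil markers 6 were tested and 2, Csf3r and Mmp8, were called lower by edgeR and by DESeq2, with 3 lower and none higher at an unadjusted p under 0.05. The others, not called, were Retnlg at −0.95 without overlap (edgeR adjusted p = 0.11), S100a8 at 0.23, S100a9 at 0.12 and Cxcr2 at 0.03 on the log2 scale, S100a8 was called higher without both libraries that stood apart, and the sums were 6583 to 6768 against 5500 to 5632. Of 11 fibroblast and fibrosarcoma markers 8 were tested and 1, Col1a2, was called lower by edgeR, or 2 without both libraries, with sums of 3323 to 3589 against 3147 to 3496. The B cell marker Cd79b, the only one tested, had a log2 fold change of −0.52 without overlap and was called lower by DESeq2 and not by edgeR, except without both libraries that stood apart. The sums were 83.2 to 96.4 against 80.6 to 99.0 for 8 T and NK cell markers, 169 to 209 against 120 to 149 for 5 B cell markers with Pax5 at 0, 850 to 908 against 858 to 902 for 5 endothelial markers, and 6.57 to 17.9 against 2.78 to 8.57 for 6 eosinophil and mast cell markers with Epx at 0. The part of these cells in the differences of the 10 genes was not tested.

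**Figure D5:**
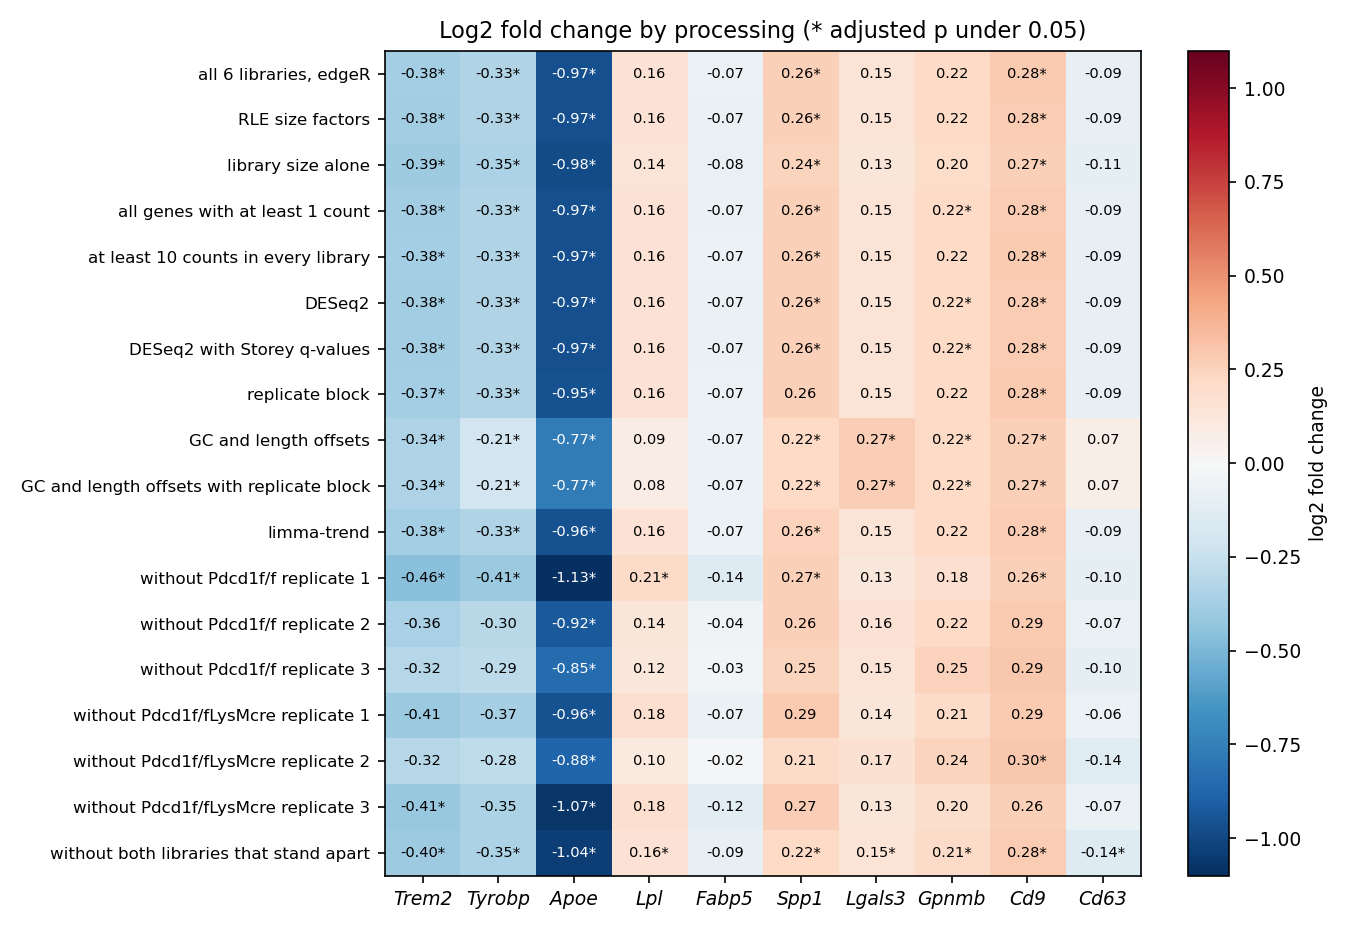
Log2 fold change of each gene (columns) under the fit of all 6 libraries and 17 alternatives (rows), with color for its size and direction and an asterisk for an adjusted p under 0.05. The sign is the same in each column except for Cd63, which is positive under the offsets for GC content and length, and Apoe has an asterisk in every row.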

How the data were processed

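RNA of TAMs was sequenced as stranded polyA libraries with paired-end reads of 42 bases. The authors removed adapters with cutadapt 2.5, aligned reads to GRCm38 with STAR 2.7.3a and counted them on Ensembl release 98 genes with featureCounts (Subread 1.6.2), and they deposited the raw counts per gene. The strand setting and the handling of multi-mapped reads are not given in the sources used here. A second deposited table of 16552 genes holds normalized signal, the counts divided by a size factor of 0.895 to 1.08 per library. Normalized counts printed here are those deposited values, with SD over 3 libraries.

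Groups came from the labels. Raw counts were tested with edgeR 4.0.16 in R 4.3.3, using filterByExpr (minimum count 10, minimum total 15), TMM, robust glmQLFit, glmQLFTest and Benjamini-Hochberg adjustment over 14469 genes. Total counts of 41833823 to 51417209 put 3 counts at 0.0583 to 0.0717 CPM, which covers counting error only. Scripts were tested on simulated data. Gene positions, exon lengths and GC content came from GENCODE M21, and promoters from RefSeq.

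The 10 genes and all lists were chosen with earlier results of these data known, and 1 gene of the regulator list is not reported here. Other genes named were, per list, up to 3 called genes with the largest change, the 5 tested genes nearest to Trem2 and to Cd9, and Lyz2 and Pdcd1. Hcst, Syk, Inpp5d, Itgb5, Tspan32, Irf8, Sel1l, Lrp1, Lgals3bp, Lgals9, other markers, the TREM family genes, Nfam1, Nr1h2, Nr1h3 and Mitf were named for their known roles or calls, after their values were seen. Alternatives were scaling by RLE factors or by library size, a filter of at least 1 count in any library or of at least 10 in every library, DESeq2 1.42.0 with adjusted p-values or Storey q-values, limma-trend (limma 3.58.1) on log2(normalized count + 1), the replicate number as a block, loess offsets (span 0.5) for GC content and exon length alone or with that block, leaving out each library or both that stood apart, and a threshold of 0.01.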

Additional observations from a re-analysis of the deposited data

How the results depend on the processing

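The number of the 10 genes called was 5 and ran from 1 to 6 when each library was left out in turn, with 0 to 3 called higher and 1 to 3 lower. Without both libraries that stood apart it was 9, of which 5 were higher. At a threshold of 0.01 it was 1, with 0 higher and 1 lower, Apoe. With offsets for GC content and length, 4 of the genes were called higher, with or without the replicate block, and Cd63 turned from −0.09 to 0.0713 without and 0.0680 with the block on the log2 scale. With the replicate block alone 1 was called higher, because Spp1 had an adjusted p of 0.051 from edgeR. In the related lists the block gained calls for Irf8 (adjusted p = 0.0306), Lrp1, Tspan32, Itgb5 and Col1a1, all lower, and lost none. Same-numbered libraries had correlations of −0.01, −0.10 and 0.22 across genes, so the numbers do not pair the libraries. The count over all genes, 786, was 1951 with all genes of at least 1 count, 1598 with DESeq2, 2089 with Storey q-values, 2684 with the offsets, 2769 with offsets and block, 3757 without both libraries and 283 at a threshold of 0.01, and it ran from 222 to 3181 with a library left out. The lowest numbers came without Pdcd1f/fLysMcre replicate 1 and without Pdcd1f/f replicate 2, and the highest without Pdcd1f/f replicate 1. Of the ratios to Trem2, 9 were without overlap also on normalized counts plus 1, and leaving out a library cannot create an overlap and says nothing of their stability. Apart from Cd63, the 10 genes kept their direction in all 17 alternative fits. With 3 libraries a genotype, a difference of the size of Trem2 or Cd9 was not called in most fits that left one out, and the cause was not tested.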
